A study of Mus musculus with 16 samples.

Results

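Astrocytes of the healthy spinal cord keep the fluid around neurons stable, and the 9 genes described here, *Aqp4*, *Glul*, *Aldh1l1*, *Ndrg2*, *Atp1b2*, *Clu*, *Sparcl1*, *Mfge8* and *Slc4a4*, are used as genes of that resting state. They were taken by name, 9 of 41193 genes with at least 1 count, and were proposed with earlier results of these data known. Astrocytes clear potassium, glutamate and water released by active neurons, buffer pH, and secrete proteins that act on synapses and on debris. After injury they become reactive, with more intermediate filament protein and more secreted factors, and a loss of resting functions is one of the changes such cells are examined for. The levels of these genes across cell types come first, then their levels over time after injury and between genotypes.

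Single-cell RNA sequencing was performed on cells from spinal cord tissue around a dorsal column lesion in mice 8 to 10 weeks of age, dissociated with pronase in the presence of actinomycin D and freed of dead cells. Control mice (WT) carried Ryk+/+,GFAPcreERT2 and knockout mice (cKO) carried Rykfl/fl,GFAPcreERT2, so that both genotypes held the Cre transgene, and the study's methods describe daily tamoxifen around the operation. Each genotype was sampled uninjured (named Sham in the labels) and 1, 7 and 14 d after spinal cord injury, with 2 mice in each of 8 conditions and 1 library per mouse. The GFAP promoter drives Cre, so deletion depends on its activity in each cell. The deposited cell table holds 208 to 1845 cells in each of 15 libraries and 1 cell in the other, in 17 clusters, of which Clusters 2, 5 and 7 are named astrocytes. The libraries of uninjured mice held 3074681 and 2117284 unique molecular identifiers (UMIs, counted transcripts) in WT and 774242 and 1963422 in cKO. At 1 d they held 536263 and 266 in WT and 666731 and 4601448 in cKO. The libraries differed widely in depth. At 7 d they held 649625 and 3032957 in WT and 1236573 and 9008729 in cKO, and at 14 d 3074365 and 8786767 in WT and 6559483 and 7264837 in cKO.

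Several libraries stood apart. Replicate 2 of WT at 1 d held 1 cell with 266 UMIs and was left out, so that 15 mice entered and the WT arm at 1 d rested on 1 mouse, assumed in the fits to vary like the others. The first replicates taken at 1 d and at 7 d, in WT and in cKO, had median depths of 414, 421, 414 and 548 UMIs per cell (in the order WT and cKO at 1 d, WT and cKO at 7 d), and these are called the 4 shallow libraries. The 11 other libraries analysed had medians of 1040.5 UMIs or more. The 6 pairs among the 4 shallow libraries shared 28 to 115 cell barcodes each, while no other pair of libraries shared more than 4. Summed over the 6 pairs these were 341 matches, of which 315 (92.4%) lay in the same cluster in both libraries. A barcode found in more than 2 libraries was counted in each pair. Over all libraries, 166 barcodes were in more than 1 library and 71 of them in more than 2. Cells whose barcode was in any other library, shallow or not, were 119 (11.6%) and 76 (6.21%) of the shallow WT and cKO library at 1 d. At 7 d they were 122 (10.1%) and 41 (2.30%). Of these cells 11, 10, 13 and 5 were astrocytes. In 6 of 16 mice the condition written in the cell names differed from that of the label, and all comparisons were made by the labels and repeated by the cell names. Cluster 2 made up 2.84% of astrocytes in the WT mouse at 1 d and 46.3% in replicate 2 of uninjured WT, so values of all astrocytes mix the clusters in unequal parts.

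*Ryk*, the targeted gene, was read first in astrocytes of every mouse, as CPM, the usual scaling of UMIs to the total of the cells summed. Uninjured mice had 123 and 54 CPM in WT and 66.1 and 85.1 CPM in cKO. At 1 d the values were 101 CPM in WT and 23 and 69 CPM in cKO, the lowest resting on 1 UMI. The genotypes overlapped when uninjured, while both cKO mice lay below the WT mouse at 1 d. At 7 d they were 157 and 116 CPM in WT and 90.1 and 119 CPM in cKO, and at 14 d 105 and 108 CPM in WT and 121 and 123 CPM in cKO. At 14 d both cKO mice were the higher ones. By the cell names, uninjured mice had 123 CPM in WT and 54 and 66.1 CPM in cKO, without overlap. At 1 d these were 101 and 116 CPM in WT and 23 and 69 CPM in cKO. At 7 d they were 157 and 85.1 CPM in WT and 90.1, 119 and 123 CPM in cKO. At 14 d they were 105 CPM in WT and 121 and 108 CPM in cKO. Counts of whole genes from short tags can include transcripts that lack the deleted part, whose position is not given in the sources used here, so *Ryk* checks the labels little.

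Genes of water and ion transport were highest in astrocytes. Levels are means ± SD over mice with at least 10 cells of the cluster, and clusters are compared as a description with no test, since they were made from the same values. Steps in an order of clusters are set against the larger SD over mice, which does not pair the clusters of a mouse. *Aqp4* (ENSMUSG00000024411.10, chr18:15389496-15410982, minus strand, build mm10), the water channel of astrocyte endfeet, had 1825 ± 1064 CPM in Cluster 5 (n = 14 mice), 1266 ± 346 in Cluster 7 (n = 15) and 385 ± 229 in Cluster 2 (n = 11). The step from Cluster 5 to Cluster 7 was smaller than the larger SD, and those from Cluster 7 to Cluster 2 and from Cluster 2 to the oligodendrocytes of Cluster 8 (76.8 ± 79.7 CPM, n = 14) exceeded it. *Atp1b2* (ENSMUSG00000041329.13, chr11:69599736-69605942, minus strand), a beta subunit of the sodium and potassium pump, had 2358 ± 684 CPM in Cluster 5, 2299.8 ± 619 in Cluster 7 and 787 ± 435 in Cluster 2. Pericytes of Cluster 9 followed at 387 ± 84.7 CPM (n = 15). Clusters 5 and 7 did not differ beyond their spread for *Atp1b2*. Nor did Cluster 2 and pericytes, though Cluster 2 was the higher in 10 of 11 mice with both. *Slc4a4* (ENSMUSG00000060961.14, chr5:88886818-89239653, plus strand), a sodium bicarbonate cotransporter that moves base across the membrane, was ordered otherwise, with 4402 ± 559 CPM in Cluster 7, 2391 ± 1163 in Cluster 5, 695 ± 198 in fibroblasts of Cluster 14 (n = 9) and 658 ± 179.9 in Cluster 2. Fibroblasts and Cluster 2 did not differ beyond their spread, and the steps from Cluster 7 to 5 and from 5 to fibroblasts did.

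The metabolic genes differed among themselves. *Glul* (ENSMUSG00000026473.15, chr1:153899944-153909723, plus strand), which encodes glutamine synthetase, had its highest mean in oligodendrocytes, not above Cluster 5 beyond the spread. Its level was 1570.0 ± 568 CPM in oligodendrocytes of Cluster 4 (n = 15), 1188 ± 490.0 in Cluster 5, 1082 ± 194 in Cluster 2, 946 ± 315 in oligodendrocytes of Cluster 8, 673 ± 87.3 in endothelial cells of Cluster 1 (n = 15) and 482 ± 154 in Cluster 7. Cluster 4 was above Cluster 5 in 8 of 14 mice with both. No neighbours in its order over 17 clusters differed by more than the larger SD. *Aldh1l1* (ENSMUSG00000030088.15, chr6:90486427-90600203, plus strand), a folate enzyme widely used to mark astrocytes, had 349 ± 212 CPM in Cluster 7, 175 ± 78.5 in Cluster 5, 69.6 ± 30.1 in Cluster 2 and 58.1 ± 67.1 in neurons of Cluster 3 (n = 15). Only the step from Cluster 5 to Cluster 2 exceeded the larger SD. *Ndrg2* (ENSMUSG00000004558.15, chr14:51905271-51914158, minus strand), a cytoplasmic protein of the N-myc downstream regulated family, had 1787 ± 709 CPM in Cluster 5, 1409 ± 513 in Cluster 2 and 890.2 ± 219 in Cluster 7, and next 179 ± 97 in Cluster 13 (n = 10). The step from Cluster 5 to 2 was within the larger SD over mice, though Cluster 5 was the higher in 11 of 11 mice with both (log2 ratio 0.55 ± 0.29). The step from 2 to 7 barely exceeded the larger SD of that pair, with a log2 ratio of Cluster 7 to 2 of -0.52 ± 0.53 within mice, and the step from 7 to 13 exceeded it.

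The secreted proteins were shared with other cells. *Sparcl1* (ENSMUSG00000029309.7, chr5:104079111-104113733, minus strand), an extracellular matrix protein known to promote synapse formation, had 4159 ± 782 CPM in Cluster 5, 3333 ± 587 in Cluster 7, 2170.1 ± 384 in Cluster 2, 1896 ± 481 in pericytes and 979 ± 235 in endothelial cells. Only Cluster 2 and pericytes of these neighbours did not differ beyond their spread. *Clu* (ENSMUSG00000022037.15, chr14:65968483-65981547, plus strand), a secreted chaperone, had 2060.3 ± 1257 CPM in Cluster 5, 1796 ± 896 in Cluster 13, 1367 ± 1496 in fibroblasts, 1166 ± 474 in Cluster 7 and 548 ± 244 in Cluster 2. The steps between the first 4 of these were within the larger SD, and that from Cluster 7 to Cluster 2 exceeded it. Cluster 13 carries no cell type name in the deposited table. *Mfge8* (ENSMUSG00000030605.15, chr7:79133768-79149060, minus strand), a secreted protein that links dying cells to phagocytes, went against the label, with 705 ± 160.0 CPM in pericytes, 94.4 ± 110.2 in fibroblasts and, further down its order, 65.4 ± 30.5 in Cluster 7, 56.4 ± 66.4 in Cluster 5 and 42.4 ± 68.5 in Cluster 2. Pericytes exceeded fibroblasts by more than the larger SD, and no later neighbours differed by that much. In Cluster 2 the highest values of *Mfge8*, 122 and 219 CPM, were 1 UMI each, from mice with 11 and 14 cells.

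**Figure D1:**
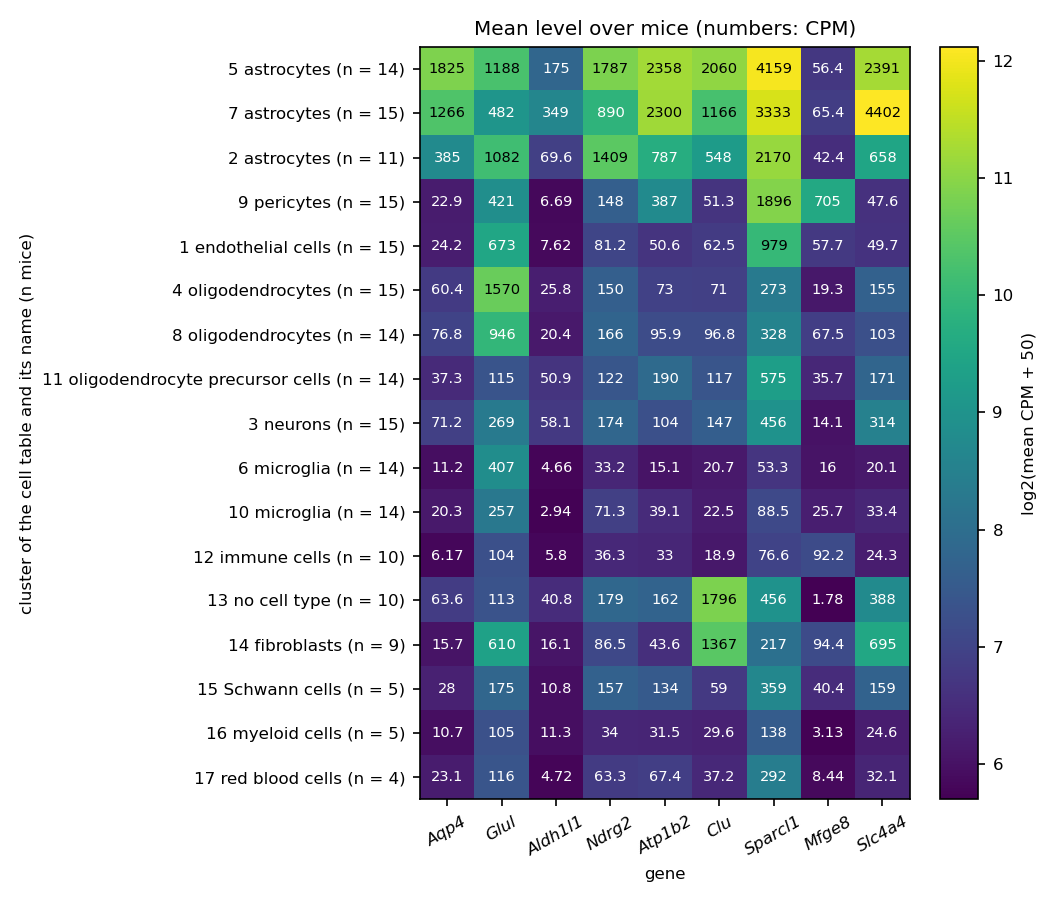
Mean level over mice of each of the 9 genes (columns) in the 17 clusters (rows, with the number of mice), as CPM in each field and as log2(CPM + 50) in colour. The mean of *Glul* is highest in Cluster 4, within the spread of Cluster 5, that of *Mfge8* in pericytes, and that of each other gene in Cluster 5 or 7.

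Ratios within a mouse compare clusters of the same library, and *Ndrg2*, *Glul*, *Slc4a4* and *Aldh1l1* differed between Clusters 5 and 7 in nearly every mouse. The log2 ratio of Cluster 5 to Cluster 7, with 50 CPM added to both, was 0.93 ± 0.41 for *Ndrg2* (mean ± SD, higher in Cluster 5 in 14 of 14 mice) and 1.14 ± 0.66 for *Glul* (13 of 14). It was -0.73 ± 0.77 for *Aldh1l1* (1 of 14), and -1.0 ± 0.55 for *Slc4a4* (1 of 14), the latter -1.21 ± 0.50 without the 4 shallow libraries, so the members did not share a direction. *Aqp4* had 0.33 ± 0.73 (9 of 14), which without the 4 shallow libraries became 0.00 ± 0.42 (5 of 10). *Clu* had 0.63 ± 0.68 with all mice and 0.38 ± 0.63 without those libraries, *Mfge8* -0.24 ± 0.76 and -0.39 ± 0.61, and *Atp1b2* 0.02 ± 0.51 and 0.08 ± 0.56. *Sparcl1* had 0.31 ± 0.30 with all mice. The log2 ratio of Cluster 5 to Cluster 2 was 1.97 ± 1.41 for *Aqp4* (11 of 11 mice) and 1.59 ± 0.78 for *Slc4a4* (11 of 11), and 1.58 ± 0.53 and 1.43 ± 0.61 without the 4 shallow libraries. That of Cluster 7 to Cluster 2 was, for *Slc4a4*, 2.70 ± 0.44 (11 of 11 mice), whereas that of *Glul* was -0.96 ± 0.34 (0 of 11). Measures of RNA quality moved with these clusters. *Malat1*, a nuclear RNA, had 34086 ± 10951 CPM in Cluster 7, 14649.7 ± 15206 in Cluster 5 and 5439 ± 6168 in Cluster 2, and mitochondrial genes took 4.103 ± 1.30, 9.60 ± 2.28 and 12.5 ± 2.58% of UMIs. The 8 oligodendrocyte markers, all detected and led by *Mbp*, summed to 1960.5 ± 656 CPM in Cluster 7, 10426 ± 6467 in Cluster 5 and 17595 ± 8436 in Cluster 2, against 12018 ± 3102 for the 12 astrocyte markers there, which include *Aqp4*, *Aldh1l1*, *Ndrg2* and *Glul*. The 12 neuron markers, all detected, summed to 384 ± 139, 2997 ± 2112 and 5717 ± 2642 CPM. In Cluster 2, replicate 1 of uninjured WT (11 cells) and of WT at 7 d (14 cells) stood apart. Their 8 endothelial markers summed to 8153 and 22757 CPM, against 247 to 1307 CPM in the other mice. The 12 astrocyte markers summed to 10830 and 4376 CPM in the same 2 mice, which enter all values of Cluster 2 with all mice. The part of these measures in the differences between clusters was not tested, and free RNA was not removed.

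Shares of cells with at least 1 UMI were taken after thinning each cell to 1000 UMIs, which left out 643, 310 and 778 shallower cells of Clusters 5, 7 and 2 and 738 of Cluster 6, microglia that should lack most of these genes. Median depths before thinning were 1377, 2882, 834 and 780.5 UMIs. *Aqp4* was found in 56.1% of cells of Cluster 5 (95% exact binomial interval 53.2 to 59.1, counting error only), 53.4% of Cluster 7, 26.9% of Cluster 2 and 1.21% of Cluster 6. Unthinned, the shares were 70.8, 67.6, 29.8 and 2.81%. *Slc4a4* was found in 70.9% of Cluster 5, 96% of Cluster 7 and 44.4% of Cluster 2 against 1.56% of Cluster 6 (unthinned 78.4, 92.6, 41 and 4.26%). Both genes were far above the microglial share in every astrocyte cluster. *Aldh1l1* reached 12.7, 31.5 and 6.44% against 0.519% (unthinned 19.3, 50.8, 6.76 and 0.988%). *Glul* reached 70.5, 30.9 and 61.8% against 30.1% (unthinned 68.1, 53.7, 55.3 and 42%). For *Glul* the share in Cluster 7 (interval 27.5 to 34.5) thus lay within counting error of that in microglia (26.4 to 34). *Mfge8* reached 1.97, 4.56 and 1.61% against 1.38% in microglia and 44.5% in pericytes (unthinned 4.21, 14.5, 1.90, 5.24 and 56.9%). At this depth its share in Clusters 5 and 2 was not above that in microglia beyond counting error. Thinned cells held a median of 5 members in Cluster 5, 5 in Cluster 7, 4 in Cluster 2 and 0 in Cluster 6.

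**Figure D2:**
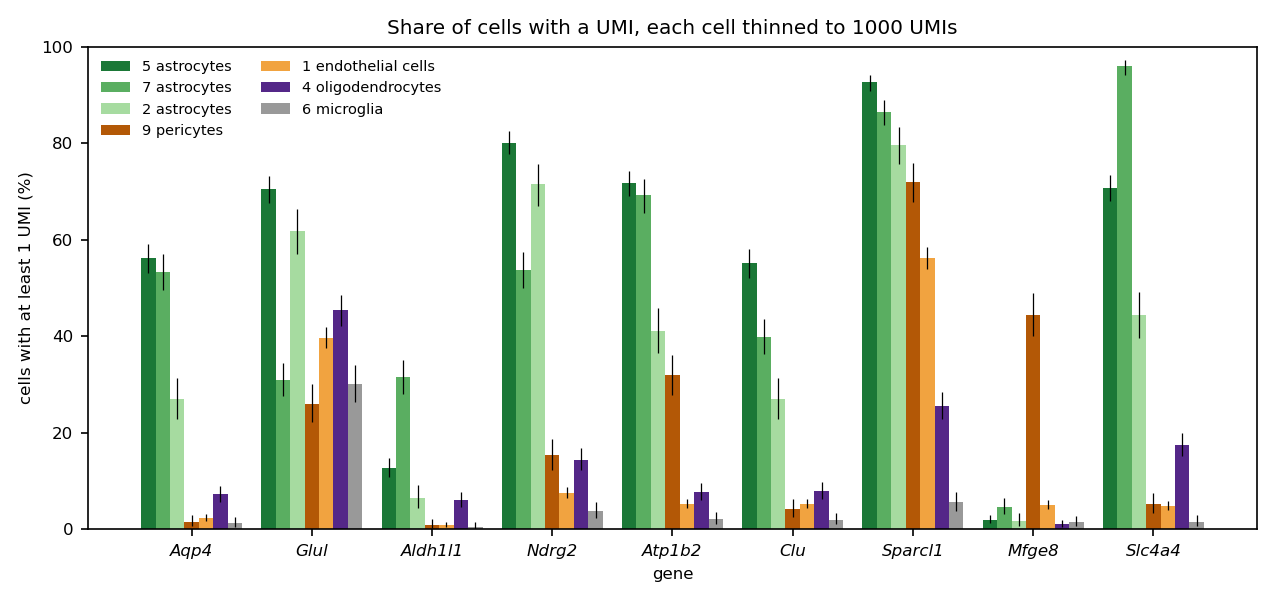
Share of cells with at least 1 UMI of each gene in 7 clusters, each cell thinned to 1000 UMIs, with 95% exact binomial intervals that cover counting error only. *Slc4a4* is found in 96.0% of Cluster 7, and *Mfge8* in 44.5% of pericytes and at most 4.56% of the 3 astrocyte clusters.

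Across the means of 17 clusters, which share libraries, *Aqp4* was most alike to *Aldh1l1* among the members (Pearson r = 0.956), *Ndrg2* to *Atp1b2* (0.934), *Slc4a4* to *Aldh1l1* (0.912), *Sparcl1* to *Atp1b2* (0.913) and *Clu* to *Slc4a4* (0.902). *Glul* and *Mfge8* stood apart, with r = 0.458 and 0.157 to the mean of the other 8. Among 10194 genes with a mean of at least 50 CPM in some cluster, those most alike to the mean of the members were *Ppp1r3c* (0.952), *Pygm* (0.941), *Pfkm* (0.940), *Abhd3* (0.935) and *Pygb* (0.934). *Pygm* and *Pygb* encode glycogen phosphorylases. The members lie on 7 chromosomes. *Slc4a4* and *Aldh1l1*, each higher in Cluster 7 than in Cluster 5 in 13 of 14 mice, span 353 and 114 kb. The other 7 members span 6.21 to 34.6 kb. Of these, *Mfge8* (15.3 kb) also had the higher mean in Cluster 7, within its spread.

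Promoter sequences (RefSeq, build GRCm38.p6, 250 bases before to 50 after a start) were at hand for 5 of 9 members, 8 windows in all, of which a pair at *Ndrg2* overlap. The letters TTGGC, bound by nuclear factor I, a family active in astrocytes, were found on either strand in 5 of 8 windows and in 46.7% of 32851 promoters. Those of AP2, GCCNNNGGC, were in 3 of 8 and 16.6%, CATTGT of SOX factors in 0 of 8 and 12.6%, and the palindrome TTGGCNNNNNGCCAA of nuclear factor I in 0 of 8 and 0.0365%. A window of *Slc4a4*, highest in Cluster 7, and the window of *Mfge8*, highest in pericytes, are shown 5′ to 3′ on the strand of the gene, with TTGGC, or GCCAA where it lies on the other strand, in capitals. A match is a description of letters only.
Slc4a4 (chr5:88887010-88887309, plus strand): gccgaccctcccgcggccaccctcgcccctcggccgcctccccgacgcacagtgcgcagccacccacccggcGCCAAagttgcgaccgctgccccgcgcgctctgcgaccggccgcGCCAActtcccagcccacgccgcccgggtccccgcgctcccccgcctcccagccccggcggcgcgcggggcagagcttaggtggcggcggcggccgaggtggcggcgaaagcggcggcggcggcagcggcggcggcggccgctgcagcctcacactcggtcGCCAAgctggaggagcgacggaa
Mfge8 (chr7:79149011-79149310, minus strand): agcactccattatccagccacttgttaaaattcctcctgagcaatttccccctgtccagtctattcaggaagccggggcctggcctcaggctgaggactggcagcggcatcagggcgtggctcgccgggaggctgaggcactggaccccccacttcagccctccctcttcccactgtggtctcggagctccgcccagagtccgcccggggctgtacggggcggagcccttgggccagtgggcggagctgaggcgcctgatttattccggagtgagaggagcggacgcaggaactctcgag
The *Slc4a4* window shown holds 3 such sites, its other window (chr5:89027716-89028015) 1, the *Mfge8* window 0 and the window of *Aldh1l1*, also highest in Cluster 7, 0.

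Whether these genes change in astrocytes after injury was asked next. *Clu* was higher in each mouse at 1 d than in the uninjured mice and *Glul* was low in both shallow libraries at 1 d, and neither passed the test. In Clusters 2, 5 and 7 together, edgeR called 0 of 9 members at 1 d, beside 9 of 11769 genes (0.0765%), a call being a p under 0.05 after Benjamini-Hochberg adjustment over all genes. Before adjustment 1 member was under 0.05. DESeq2 called 0 members beside 9 genes, with 3 members beside 402 genes before adjustment. Of all genes, 5.67% were under 0.05 before adjustment by edgeR. *Glul* was the member below that level. Uninjured mice had 702 and 994 CPM in WT and 562 and 899.8 CPM in cKO. At 1 d the values were 269 CPM in WT and 414 and 933 CPM in cKO, from 16, 18 and 866 UMIs. Both shallow libraries lay below all uninjured mice, and the deep one lay among them. The log2 fold change of *Glul* was -1.48 ± 0.60 (SE, adjusted p = 0.812 by edgeR). By the cell names it was -0.45 ± 0.59, and without shared barcodes -1.56 ± 0.61. Without the 4 shallow libraries it was 0.00 ± 0.69, but only replicate 2 of cKO was left at 1 d, with no WT mouse. That value is therefore not the same comparison. *Clu* differed the other way, with 923 and 739 CPM in WT and 705 and 626 CPM in cKO when uninjured. At 1 d it was at 2789.9 CPM in WT and 1610.1 and 1873 CPM in cKO, all above the uninjured mice. Its log2 fold change was 1.03 ± 0.51 (adjusted p = 0.812 by edgeR) and 0.86 ± 0.51 by the cell names. Without the shallow libraries, and so from 1 cKO mouse at 1 d, it was 1.38 ± 0.58. The median of all genes was -0.34 at 1 d and -0.17 after thinning cells to 1000 UMIs. Relative to it *Glul* was at -1.14 and *Clu* at 1.37. The median of the 9 members, not set relative to it, was -0.06. Summed oligodendrocyte markers in astrocytes also differed between these mice, with 1731 and 3082 CPM in the shallow libraries at 1 d and 8180 in the deep one, against 1810 to 20123.5 when uninjured. Their part in these values was not tested.

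At 7 d edgeR called 0 of 9 members and 0 of 11769 genes (0%), with 0 members at an unadjusted p under 0.05 by edgeR and 0 by DESeq2. At 14 d the counts were again 0 of 9 and 0 of 11769 (0%), with 0 and 0 members at the unadjusted level, and DESeq2 called 0 members at both times. *Aqp4* had 717 to 1466 CPM in 4 uninjured mice and 788, 1288 and 2942 CPM as the lowest, median and highest of 11 injured mice. *Sparcl1* had 2954 to 3415 CPM uninjured and 2639, 3477 and 4182 CPM injured. The ranges overlapped for both. *Slc4a4* had 1462 to 4794 CPM uninjured and 1886, 3417 and 4263 CPM injured, *Atp1b2* 1367 to 2643 CPM uninjured and 1571, 1999.8 and 3294 CPM injured. *Ndrg2* had 767 to 1376 CPM uninjured and 644, 1346 and 2052 CPM injured. These ranges overlapped too. The 3 time points share their uninjured controls. With SEs of 0.40 to 0.60 on the log2 scale, a change smaller than the spread between mice could not be seen.

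Within single clusters, *Aldh1l1* was highest in deep libraries of injured cKO mice in Cluster 7. No member passed the test in Cluster 5 or 7 with all mice and no replicate block. In Cluster 5 *Aldh1l1* had 166, 175, 129 and 156 CPM in those cKO libraries, against 161 to 375 CPM in injured WT mice. In Cluster 5 alone, edgeR called 0 of 9 members and 2 of 7929 genes (0.0252%) at 1 d, with 1 member at an unadjusted p under 0.05 and 2 by DESeq2, which called 0. At 7 d and at 14 d it called 0 of 9 members and 0 of 7929 genes (0%), with 0 members at the unadjusted level by either tool. In Cluster 7 alone it called 0 of 9 members and 15 of 7966 genes (0.188%) at 1 d, with 2 members at the unadjusted level and 1 by DESeq2. At 7 d the counts were 0 of 9 members and 3 of 7966 genes (0.0377%), with 2 members at the unadjusted level and 1 by DESeq2. At 14 d they were 0 of 9 members and 15 of 7966 genes (0.188%), with 1 member at the unadjusted level and 2 by DESeq2, which called 0 members at each time in both clusters. Of all genes, edgeR had 5.89% at the unadjusted level in Cluster 5 at 1 d, and 6.52%, 7.43% and 7.73% in Cluster 7 at 1, 7 and 14 d. DESeq2 had 369 genes at that level in Cluster 5 at 1 d, and 251, 198 and 165 in Cluster 7. *Aldh1l1* in Cluster 7 came nearest to a call. Uninjured mice had 229 and 167 CPM in WT and 261 and 112 CPM in cKO, and at 1 d the values were 161 CPM in WT and 469 and 588 CPM in cKO. At 7 d they were 398 and 206 CPM in WT and 140.2 and 670.0 CPM in cKO, and at 14 d 299.8 and 187 CPM in WT and 625 and 719 CPM in cKO. The deep cKO libraries after injury were the highest, whereas WT mice after injury overlapped with uninjured mice. The log2 fold change at 14 d was 1.14 ± 0.31 (SE, adjusted p = 0.137 by edgeR). With a replicate block it was 1.14 ± 0.28 with an adjusted p of 0.0239, and without replicate 2 of WT at 14 d 1.30 ± 0.32 with an adjusted p of 0.0456, both under the threshold. It was 1.02 ± 0.32 without the shallow libraries, 1.11 ± 0.30 without shared barcodes, 0.71 ± 0.35 by the cell names and 0.23 ± 0.42 in WT mice alone, with adjusted p-values of 0.348, 0.145, 0.725 and 1.00. At 1 d the other members under 0.05 before adjustment were *Clu* in Cluster 7 (0.76 ± 0.34), *Glul* in Cluster 7 (-0.78 ± 0.37) and *Glul* in Cluster 5 (-2.20 ± 1.04). Without the shallow libraries, where only replicate 2 of cKO is left at 1 d, they had 1.45 ± 0.42, 0.07 ± 0.35 and -0.43 ± 0.83. At 7 d in Cluster 7 such members were *Aldh1l1* (0.87 ± 0.32, and 0.94 ± 0.37 without the shallow libraries) and *Mfge8*. *Mfge8* in Cluster 7 had 75 and 50.7 CPM in WT and 78.3 and 80.2 CPM in cKO when uninjured. At 7 d it had 79.6 and 41.1 CPM in WT and 0 and 27.1 CPM in cKO, from 3, 12, 0 and 27 UMIs. Uninjured mice and those at 7 d overlapped, and the log2 fold change was -1.09 ± 0.40 (adjusted p = 0.385 by edgeR). It was -1.16 ± 0.38 without the shallow libraries, -1.19 ± 0.41 without shared barcodes and -0.15 ± 0.40 by the cell names.

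**Figure D3:**
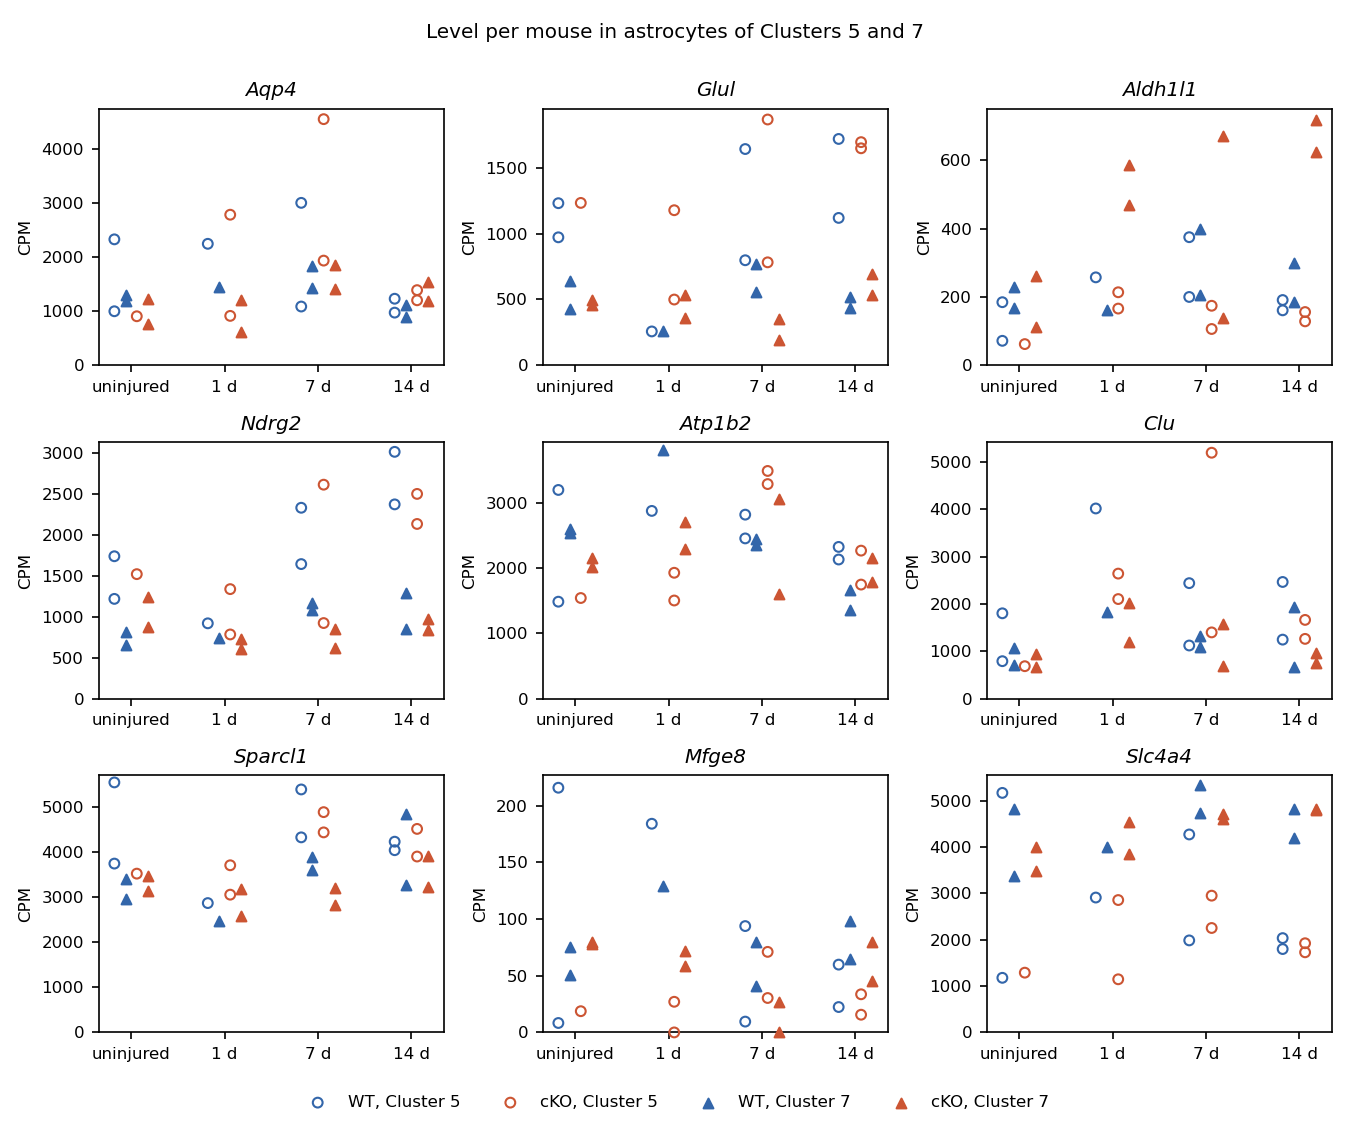
Level of each gene (CPM) in each mouse, uninjured and 1, 7 and 14 d after injury, in astrocyte Clusters 5 (circles) and 7 (triangles), WT in blue and cKO in red, 1 symbol per mouse with at least 10 cells. *Aldh1l1* in Cluster 7 reaches 719 CPM in cKO at 14 d, and the spread between mice of 1 group is wide for most genes.

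The effect of the *Ryk* knockout was compared in the same fit of all astrocytes, where *Aldh1l1* and *Mfge8* differed most between the genotypes and no member passed the test. For cKO against WT averaged over 1, 7 and 14 d, edgeR called 0 of 9 members and 0 of 11769 genes (0%), with 0 members at an unadjusted p under 0.05 by edgeR and 0 by DESeq2. For the same difference set against that of uninjured mice, it again called 0 of 9 and 0 of 11769 (0%), with 0 and 0 members before adjustment, and DESeq2 called 0 members in both. *Aldh1l1* had 161 to 362 CPM in 5 injured WT mice and 120.1, 387 and 492 CPM as the lowest, median and highest of 6 injured cKO mice. The groups overlapped, and the log2 fold change was 0.78 ± 0.41 (adjusted p = 1.00 by edgeR) and 0.62 ± 0.41 by the cell names. Without the shallow libraries it was 0.68 ± 0.35, an average that lacks WT mice at 1 d. In Cluster 5 alone, *Aldh1l1* had 161 to 375 CPM in injured WT mice and 107 to 214 CPM in injured cKO mice. *Mfge8* had 28.4 to 151 CPM in injured WT mice and 27.7, 43 and 52.9 CPM in injured cKO mice, also overlapping. Its log2 fold change was -0.81 ± 0.42 with all mice. Without the shallow libraries, and so again with no WT mouse at 1 d, it was -0.18 ± 0.33. The other 7 members had log2 fold changes of -0.19 to 0.41, and the median of all genes was 0.15.

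In other cell types all injured mice were compared with uninjured ones in 8 clusters. *Mfge8* in pericytes was above its level in Clusters 5 and 7 together in all 15 mice, and for members far below that level UMIs of the cells and of free RNA cannot be told apart. Members that passed the filter on low counts were 8 in endothelial cells of Cluster 1, 8 in neurons of Cluster 3, 7 and 8 in oligodendrocytes of Clusters 4 and 8, 3 and 5 in microglia of Clusters 6 and 10, 7 in pericytes of Cluster 9 and 7 in oligodendrocyte precursors of Cluster 11. edgeR called 0 of them in each, beside 0 of 9186 genes (0%) in Cluster 1, 3 of 7059 (0.0425%) in Cluster 3, 0 of 4414 (0%) in Cluster 4, 0 of 5434 (0%) in Cluster 6, 0 of 3691 (0%) in Cluster 8, 0 of 4696 (0%) in Cluster 9, 27 of 4250 (0.635%) in Cluster 10 and 0 of 3416 (0%) in Cluster 11. At an unadjusted p under 0.05, edgeR and DESeq2 counted 4 and 3 members in Cluster 1, 4 and 3 in Cluster 3, 3 and 4 in Cluster 4, 0 and 0 in Clusters 6, 8 and 9, 0 and 1 in Cluster 10 and 1 and 0 in Cluster 11. Of all genes, edgeR had 7.17% at that level in Cluster 1, 11.1% in Cluster 3, 5.73% in Cluster 4, 10.8% in Cluster 10 and 5.65% in Cluster 11. DESeq2 had 618, 818, 268, 432 and 203 genes at that level in the same clusters. In each of the 8 clusters DESeq2 called 0 members. *Aldh1l1* in neurons had the lowest p among them, with a log2 fold change of 1.92 ± 0.57 (adjusted p = 0.176 by edgeR). It was 2.16 ± 0.53 without the shallow libraries, 2.00 ± 0.68 by the cell names and 1.65 ± 0.54 with a replicate block. By DESeq2 it was 1.19 ± 0.66, and with the animal number term described below 1.14 ± 0.48. Its level in neurons was 0 to 37.2 CPM in injured WT mice, against 24.5 and 29.7 CPM in uninjured WT mice. *Aqp4* in Cluster 4 had -2.07 ± 0.70, and *Ndrg2* in Cluster 1 had -1.52 ± 0.60, neither called. With a term for animal numbers of the lower or higher series, edgeR called 3 members beside 93 of 9810 genes (0.948%) in Cluster 1, 5 beside 608 of 8012 genes (7.59%) in Cluster 3 and 4 beside 63 of 5035 genes (1.25%) in Cluster 4, each of these members with a negative fold change.

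Other genes of the same cell were taken from lists. Of 34 further homeostatic astrocyte genes, 33 were tested in all astrocytes and 0 were called by edgeR at any time or between genotypes, with 1, 1 and 0 at an unadjusted p under 0.05 at 1, 7 and 14 d and 0 by DESeq2 adjustment. Their median log2 fold change at 1 d was -0.49, beside -0.34 for all genes. The 12 astrocyte transcription factors, 11 tested, had 0 called, 0 at the unadjusted level at each time and a median of -0.07 at 1 d. DESeq2 called 0 of them. Of 36 reactive astrocyte genes, 35 were tested in all astrocytes and 5 rose at 1 d, beside 9 of 11769 genes called, with a median of 2.73 over the list. At 7 and 14 d 0 were called by edgeR and 0 by DESeq2, with 4 and 6 under 0.05 before adjustment by edgeR, as were 4.57% and 2.87% of all genes. *Lcn2*, a secreted protein that binds iron carriers, had 0 and 2 UMIs in uninjured WT, 0 and 0 in uninjured cKO, 41 in WT at 1 d and 3 and 140 in cKO at 1 d. *Hmox1*, a haem-degrading enzyme, and *Timp1*, a protease inhibitor, also had 0 or 1 UMI in each uninjured mouse, so no fold is given for these 3. *Hspb1*, a small chaperone, had 8.19 and 14.8 CPM in uninjured WT, 22 and 8.11 in uninjured cKO, 706 in WT at 1 d and 460.0 and 488 in cKO at 1 d. All 3 mice at 1 d lay above the uninjured ones, and *Hspb1* rose by 4.98 ± 0.77 on the log2 scale and *Serpina3n*, a serine protease inhibitor, by 4.09 ± 0.72. The count of 5 was 0 without the WT library at 1 d, 0 without replicate 2 of cKO at 1 d and 3 without its replicate 1. It was 3 and 2 without replicates 1 and 2 of uninjured cKO and 0 by the cell names. Without the 4 shallow libraries only 1 cKO mouse was left at 1 d, so no count is given. In Cluster 5 2 of 31 reactive genes tested rose at 1 d, *Lcn2* and *Hmox1*, beside a call for 2 of 7929 genes, and 0 were called without the WT library, replicate 2 of cKO at 1 d or replicate 2 of uninjured cKO. Their count was 6 and 4 without replicates 1 and 2 of uninjured WT. Leaving out the 4 shallow libraries again left 1 cKO mouse at 1 d, and no count is given. In Cluster 7 6 of 21 tested rose at 1 d, beside 15 of 7966 genes called. They were *Timp1*, *Osmr*, *Hspb1*, *Serpina3n*, *Cd44* and *Gfap*, the astrocyte intermediate filament, the last by 2.05 ± 0.35. DESeq2 called 3 there, and edgeR 1 without replicate 2 of cKO at 1 d and 3 without the WT library. *Gfap* also rose at 7 d in Cluster 7, the 1 of 21 called beside 3 of 7966 genes, by 1.54 ± 0.31, a call that was lost without the 4 shallow libraries, by the cell names, by DESeq2, and without either replicate of cKO at 7 d, replicate 2 of WT at 7 d or replicate 2 of uninjured cKO, while *Serpina3n* was called beside it without replicate 1 of uninjured WT. In microglia of Cluster 10, *Cst3*, a cysteine protease inhibitor and the 1 of 11 homeostatic genes tested that was called beside 27 of 4250 genes, fell by 1.75 ± 0.32 on the log2 scale (adjusted p = 0.00777 by edgeR). Its 3 uninjured mice had 34509.6 and 47823 CPM in WT and 38919 CPM in cKO, above all injured mice, and the call was lost without the 4 shallow libraries, by the cell names, and without replicate 2 of uninjured WT or of uninjured cKO. Of 16 genes tested of the reactive list, *Spp1*, a secreted phosphoprotein, and *Lgals1*, a galectin, rose there, *Spp1* from 38.9, 0 and 424 CPM in uninjured mice to at least 1225 CPM in each injured mouse. Their count of 2 was 0 without replicate 2 of uninjured WT and 1 without replicate 1 of uninjured WT, without replicate 2 of uninjured cKO and by the cell names. Whether reactive and homeostatic genes differ in their change was not tested.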

How the data were processed

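Numbers of UMIs per gene and cell were deposited by the authors as counts, made with Cell Ranger on GRCm38 (mm10) and clustered with Seurat in R 4.1.2 according to their notes. Gene and cluster names are theirs. UMIs were summed per mouse and cluster (at least 10 cells) and tested in R 4.3.3 with edgeR 4.0.16 (trimmed mean of M values, filterByExpr, quasi-likelihood test, group means of 8 conditions in astrocytes, and time plus genotype in other clusters) and, as an alternative, DESeq2 1.42.0. Genes were called under 0.05 after Benjamini-Hochberg adjustment over all genes tested. The members and lists were chosen with earlier results of these data known, and the genes named are all members, list genes called (at most 5 with the largest rise or fall per comparison, and *Gfap* in Cluster 7 beside them as chosen after its values were seen) and the 5 most alike in pattern. Clusters other than 2, 5 and 7 were tested with at least 12 mice, 3 of them uninjured, and Clusters 12 to 17 were not tested. Replicate 2 of WT at 1 d, with 1 cell, was left out. The batch column equals the replicate in 16 of 16 mice. Replicates were checked for shared deviations across conditions, with a median r of 0.160 in astrocytes, 0.132 in Cluster 5 and 0.0771 in Cluster 7, and a replicate block was tried. Other alternatives were DESeq2 size factors, no filter on low counts, an additive fit, WT mice alone, animal number series, at least 30 cells, Clusters 5 and 7 alone, cells thinned to 1000 UMIs, conditions of the cell names and each library left out. Fits without the 4 shallow libraries were also made, and these leave replicate 2 of cKO as the only mouse at 1 d. Leaving out cells with a shared barcode, and levels across clusters without the 4 shallow libraries, were added after seeing the data. Doublets were not called or removed here, and free RNA was not removed. Gene positions were looked up by symbol in GENCODE M21 on mm10, which need not be the gene models of the authors. Levels, shares and figures came from Python 3.11.15 and its packages matplotlib 3.10.9, pandas 2.3.3, numpy 2.4.6 and scipy 1.17.1. The fits were also run on simulated data, from which no result is given here.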

Additional observations from a re-analysis of the deposited data

Results flagged for a closer look

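In 81 groups of 4 or more mice checked for a mouse far from the others, 3 held one, and chance marks about 1 in 20 such groups. All 3 are replicate 1 of WT at 14 d. *Clu* in astrocytes was at 1889.71 CPM in that mouse and at 858, 991 and 993 CPM in the others at 14 d. *Glul* in Cluster 5 was at 1118.46 CPM against 1717, 1693 and 1646 CPM. *Slc4a4* in Cluster 7 was at 4183.09 CPM against 4812, 4788 and 4825 CPM.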

How the results depend on the processing

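In the main edgeR fits, the count of members called was 0 in each comparison. It did not move in 482 of 489 cases over alternatives and libraries left out. It became 1 in Cluster 7 at 14 d with a replicate block (*Aldh1l1*), and leaving out 1 library in turn gave 0 to 1 there and 0 in the other comparisons. It became 5 beside 138 of 27908 genes (0.494%) in Cluster 1 and 2 beside 38 of 29955 genes (0.127%) in Cluster 4 with no filter on low counts. With the animal number series as a term it became 3 beside 93 of 9810 genes (0.948%) in Cluster 1, 5 beside 608 of 8012 genes (7.59%) in Cluster 3 and 4 beside 63 of 5035 genes (1.25%) in Cluster 4. Members' log2 fold changes passed the threshold in none of the main fits. Under alternatives and with libraries left out, they did not pass it in 3886 of 3907 cases and passed it in 21. Of the 3907, 250 had the other sign. The cause was not tested. The sum of genes called over the 9 time comparisons of astrocytes, 44, was 18 with DESeq2, 15 in WT mice alone, 931 with the animal number series, 11 in thinned cells, 205 with no filter, 118 with a replicate block and 105 without the 4 shallow libraries. The sum over the 8 other clusters, 30, was 189 with DESeq2, 879 with the animal number series, 9 in thinned cells, 2 by the cell names and 421 with no filter. Causes of these differences were not tested. With 1 library left out, genes called ranged from 0 to 12 in astrocytes at 1 d, 3 to 20, 0 to 97 and 6 to 46 in Cluster 7 at 1, 7 and 14 d, 0 to 1 in astrocytes at 14 d and between genotypes, 0 to 10 in Cluster 5 at 1 d, 0 to 9 in Cluster 1, 0 to 80 in Cluster 3, 0 to 4 in Cluster 6, 0 to 285 in Cluster 8 and 0 to 43 in Cluster 10, and 0 were called throughout in the others. The highest counts in Cluster 7 at 7 and 14 d and in Cluster 8 came without replicate 1 of uninjured WT, and that in Cluster 3 without replicate 1 of uninjured cKO. Cluster 10 with at least 30 cells could not be fitted. Of 432 cluster ratios 10 moved beyond their spread, and of 72 shares 54 moved beyond their interval between depths. Each condition has at most 2 mice, the WT arm at 1 d has 1, and 4 libraries are shallow, so that small changes could not be seen. In Cluster 5 the uninjured cKO arm also has 1 mouse, since its replicate 1 held 7 cells there. Leaving out replicate 2 of uninjured cKO removes that arm.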

Other observations

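*Aldh1l1* was also high in neurons of some injured cKO mice, and the difference between genotypes was not tested in Cluster 7 or in neurons. In neurons of Cluster 3, uninjured mice had 24.5 and 29.7 CPM in WT and 11.5 and 14.7 CPM in cKO, and at 1 d 0 CPM in WT and 21.4 and 131 CPM in cKO. At 7 d the values were 0 and 24.9 CPM in WT and 28.2 and 194 CPM in cKO, and at 14 d 37.2 and 34.5 CPM in WT and 133 and 188 CPM in cKO. The WT values of 0 came from shallow libraries with 7570 and 22414 UMIs in all neurons, so they do not show absence. In cKO, 21.4 and 28.2 CPM were 1 UMI each, and 131 and 194 CPM rested on 153 and 169 UMIs. The highest values were those of replicate 2 of cKO at 1 d and 7 d and of both cKO mice at 14 d.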
